A study of Mus musculus with 8 samples.

Results

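Among CD8 T cells of mouse spleen and liver, a small minority carried several RNA molecules of a handful of genes that type I interferon switches on, and these interferon-responding cells are described here. They were chosen from their own expression values: a cell belonged if the unique molecular identifiers (UMIs, each marking 1 captured RNA molecule) of Ifit1, Ifit3, Ifit3b, Rsad2, Mx1 and Cmpk2 summed to at least 4, and cells of the same library with a sum of 0 served for comparison. This rule found 445 cells among 18732, against 15662 cells with a sum of 0. The cells came from mice homozygous for an Eomes transgene (EomesTG, labelled EomesTg/Tg) and from wild-type (WT) C57BL/6 mice. Eomes encodes a T-box factor that helps drive memory and cytotoxic programs in lymphocytes, and the promoter of the transgene and the ages of the mice are not given in the sources used here. Material of 3 mice per strain was combined, CD8 T cells were sorted from the liver and the spleen, and each genotype and organ gave 1 droplet library of RNA and 1 of T cell receptors. The 4 libraries are therefore EomesTG liver, WT liver, EomesTG spleen and WT spleen. The spleen and liver libraries of 1 genotype come from the same combined mice and are not independent, and no difference between libraries can be set against a spread between mice.

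Type I interferons are secreted by many cells that sense viral or self nucleic acid, and they bind a receptor of the chains IFNAR1 and IFNAR2. The kinases JAK1 and TYK2 then activate STAT proteins, which join IRF9 into a complex that binds interferon-stimulated response elements in the promoters of interferon-stimulated genes (ISGs). In CD8 T cells this signal is known to shape activation, survival and differentiation, and a small ISG-high fraction is a familiar sight in unchallenged mice. Many ISGs, among them Irf1 and the guanylate-binding proteins, also respond to interferon gamma, so the RNA alone does not name the ligand.

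The filtered libraries held 4521 cells of EomesTG liver, 3150 of WT liver, 5726 of EomesTG spleen and 5335 of WT spleen, with 20572245, 19137483, 28282240 and 28760172 UMIs. The interferon-responding cells themselves held 329389, 866747, 611279 and 878203 UMIs. They were somewhat deeper than the rule-sum-0 cells of their library, with medians of 5265.5 against 3847 UMIs per cell in EomesTG liver, 6217 against 5357.5 in WT liver, 5100 against 4678.5 in EomesTG spleen and 5406 against 4976 in WT spleen. A deeper cell reaches a sum of 4 more easily, so shares are also given after every cell was thinned to 2000 UMIs. The median mitochondrial share lay between 2.09 and 2.88% in interferon-responding cells and between 1.63 and 2.96% in rule-sum-0 cells. Of the barcodes, 217 occurred in more than 1 library, among them the barcodes of 1, 5, 6 and 4 interferon-responding cells of EomesTG liver, WT liver, EomesTG spleen and WT spleen.

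The cells were CD8 T cells by their markers. All 445 had a UMI of a CD3 chain gene, and 54 of 54, 125 of 129, 111 of 114 and 145 of 148 had one of Cd8a or Cd8b1 in EomesTG liver, WT liver, EomesTG spleen and WT spleen. Of 10 T cell identity genes, 1 was higher than in rule-sum-0 cells and 0 were lower, where 3.12% and 0.508% of all genes tested were. The 1 gene was Cd2, an adhesion receptor gene, at a log2 fold change of 0.35, and its call was lost without WT liver, EomesTG spleen or WT spleen. The B cell genes Cd79a and Ms4a1, the helper T cell gene Cd4 and the plasmacytoid dendritic cell gene Siglech were at 0 UMIs in the interferon-responding cells of all 4 libraries. The 10 myeloid genes summed to between 85.4 and 453 CPM (counts per 1000000 UMIs) in them, against between 104 and 249.98 CPM in rule-sum-0 cells; the highest value, in WT liver, includes 1 cell with 313 UMIs of other cell types. The 8 B cell genes summed to between 203 and 273 CPM, against between 151 and 360 CPM. The 6 helper T and NK cell genes, among them Eomes, summed to 115, 219, 155 and 140 CPM in EomesTG liver, WT liver, EomesTG spleen and WT spleen. Rule-sum-0 cells had 211, 136, 138 and 99.7 CPM. The 8 hepatocyte, red cell and endothelial genes summed to between 18.2 and 46.7 CPM, against between 13.4 and 43.1 CPM. In the responding cells of WT liver 1 of the 10 myeloid genes, S100a8, was at 0 UMIs, against 7 of 10 in each other library. Lyz2, Csf1r, C1qa, C1qb and Adgre1 were thus captured in WT liver. Cd40lg, Ncr1, Klrb1c, Alb, Apoa1 and Serpina1b were not at 0 UMIs there either. Klrb1c and Ttr were also captured in EomesTG liver, Foxp3 in EomesTG spleen and Cd40lg in WT spleen. The plasmacytoid dendritic cell list was raised mainly through Bst2, itself an ISG. Its other 6 genes summed to 60.7, 70.4, 32.7 and 27.3 CPM in EomesTG liver, WT liver, EomesTG spleen and WT spleen. Rule-sum-0 cells had 102, 61.7, 32.8 and 30.3 CPM, so that without Bst2 the list was higher in WT liver alone. Cells with 2 productive TRB chains, which include doublets, made up 5.56, 10.1, 12.3 and 12.8% of interferon-responding cells, against 3.63, 6.35, 5.62 and 5.87% of rule-sum-0 cells in the same 4 libraries. With such cells left out, 318 genes and 46 antiviral genes were higher; with cells of 3 or more UMIs of other cell types left out, 286 and 45 were, and with cells of 10 or more left out, 317 and 46. Cells with 3 or more such UMIs made up 27.8, 38.8, 31.6 and 41.9% of interferon-responding cells, against 14.0, 30.1, 29.8 and 32.6% of rule-sum-0 cells. Those with 10 or more made up 3.70, 3.101, 1.75 and 1.35%, against 0.493, 2.04, 0.638 and 0.629%.

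The 6 genes that chose the cells are given as a description, without a test. Ifit1 and Ifit3, whose proteins bind viral RNA and block its translation, were the most abundant. Ifit3 stood at 580 CPM in EomesTG liver, 591 in WT liver, 581 in EomesTG spleen and 577 in WT spleen, and Ifit1 at 616, 446.5, 489 and 458 CPM. Mx1, a dynamin-like antiviral GTPase gene whose C57BL/6 allele is known to encode no functional protein, stood at 240, 189, 157 and 171 CPM. Rsad2, which encodes the antiviral enzyme viperin, stood at 121, 127, 190 and 141 CPM, and its neighbour on chromosome 12, the mitochondrial nucleotide kinase gene Cmpk2, at 124, 90.0, 136 and 126 CPM. Ifit3b stood at 128, 137, 115 and 137 CPM; it is a close copy of Ifit3 on chromosome 19, so reads may have been split between them. The cells held 4399 of the 7812 UMIs of these genes, or 56.3%, and the rest lay in cells below the threshold. The median sum was 8.5 in EomesTG liver and 7 in each of the other 3 libraries, and the highest was 53. Of the 445 cells, 15 had reached 4 with a single gene, 87 with 2 genes, 139 with 3, 101 with 4, 62 with 5 and 41 with all 6.

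The promoters of most of these genes that could be looked up hold letters of the response element. In the 250 bases before the RefSeq gene start (GRCm38.p6), the letters GAAANNGAAA or, on the other strand, TTTCNNTTTC were searched as a minimal response element. They occurred in 4 of the 5 genes of the rule found in the promoter table. The stretches with the matches, with up to 30 bases on either side, are shown 5′ to 3′ on the strand of each gene, first for 3 genes of the rule and then for 2 of the genes that were highest in the cells beside them; the capitals mark the matches, which overlap in Isg15.
Ifit1 (chr19:34640755-34640843, forward strand): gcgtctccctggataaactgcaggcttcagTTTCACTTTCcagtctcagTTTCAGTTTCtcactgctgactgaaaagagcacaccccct
Ifit3 (chr19:34583343-34583446, forward strand): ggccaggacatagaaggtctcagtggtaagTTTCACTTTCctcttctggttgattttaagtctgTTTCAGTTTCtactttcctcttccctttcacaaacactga
Rsad2 (chr12:26456533-26456602, reverse strand): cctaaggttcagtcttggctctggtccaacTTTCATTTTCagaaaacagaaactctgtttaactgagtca
Isg15 (chr4:156200845-156200926, reverse strand): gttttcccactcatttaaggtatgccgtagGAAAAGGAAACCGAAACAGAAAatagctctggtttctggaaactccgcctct
Cxcl10 (chr5:92349063-92349132, reverse strand): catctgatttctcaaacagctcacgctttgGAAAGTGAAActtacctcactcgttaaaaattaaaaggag
Ifit1 held 2 matches, beginning 104 and 85 bases before its start, and Ifit3 held 2, beginning 156 and 122 bases before. Rsad2 and Cxcl10 held 1 each, 120 and 213 bases before, and Isg15 held 3 that overlap. Cmpk2, Oasl2, Irf7 and Isg20 held no match in this window.

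Outside the 6 genes, the cells carried a broad antiviral program. UMIs were summed per library over the interferon-responding cells and over the rule-sum-0 cells, and edgeR's quasi-likelihood test compared the 2 sums within each library, with Benjamini-Hochberg adjustment over 10443 genes and a threshold of 0.05. It called 326 genes higher (3.12% of those tested) and 53 lower (0.508%), and the median over all genes tested was a log2 fold change of −0.02. All 46 antiviral genes tested were higher by CPM in all 4 libraries, as were 6.51% of all genes tested, and 0 were lower in all 4, as were 15.1%. Because the cells were chosen in these same libraries, the test tells which genes go together with the 6, and p-values measure the spread between 4 libraries of 2 mouse pools. Of 46 antiviral ISGs tested, 45 were higher and 0 lower, with a median log2 fold change of 2.29; Tdrd7 was not called, at 1.79 ± 0.53 (SE, adjusted p = 0.0683). Of 16 guanylate-binding protein and immunity-related GTPase genes all 16 were higher, with a median of 1.96, and of 15 nucleic acid sensor genes 11 were higher, with a median of 2.09. Over the 9 interferon lists together, 98 of 129 genes were higher and 0 were lower.

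**Figure D1:**
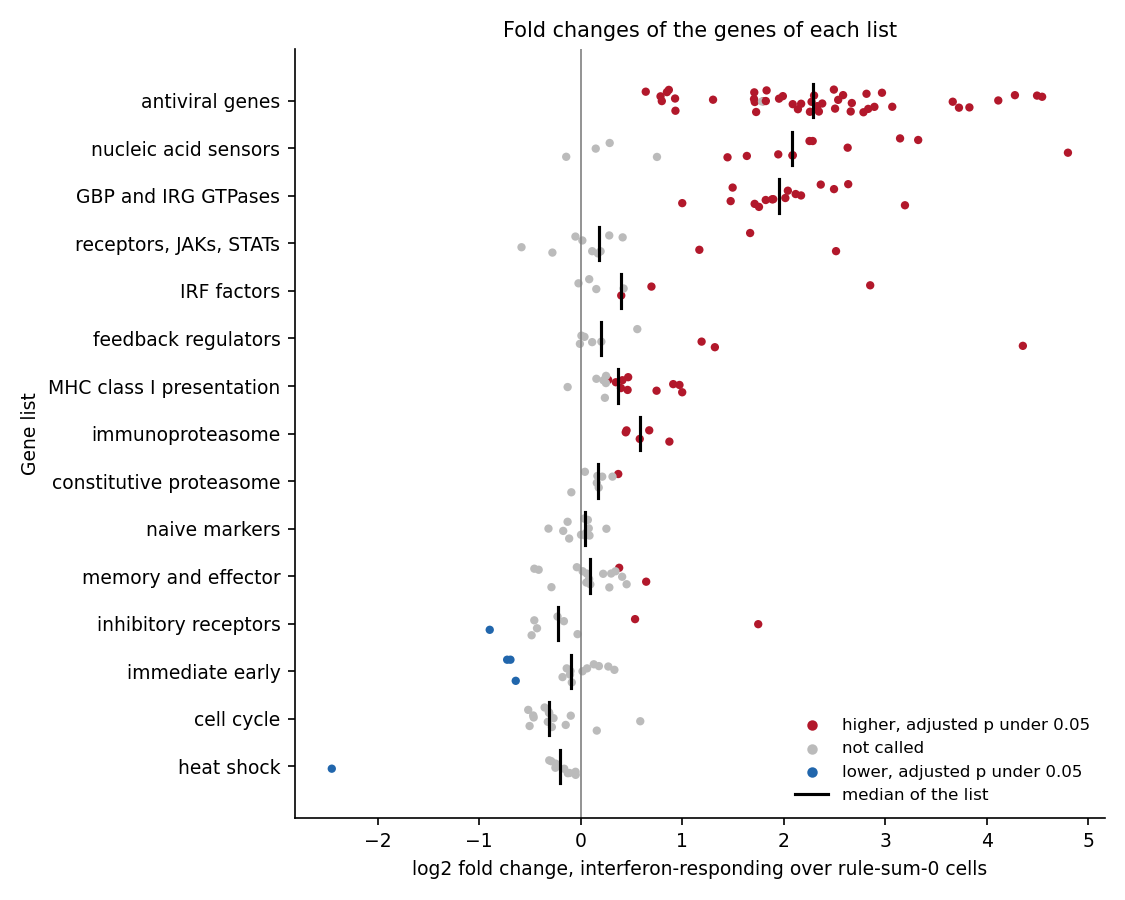
Log2 fold change of each listed gene (points) in interferon-responding over rule-sum-0 cells, by gene list; red and blue mark genes called higher and lower by edgeR, grey those not called, and black lines the list medians. The antiviral, sensor and GTPase lists lie around a log2 value of 2 with medians of 2.29, 2.09 and 1.96, while the naive, memory and cell cycle lists have medians of 0.04, 0.09 and −0.31.

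Isg15 had the largest log2 fold change among called genes with at least 20 UMIs. It encodes a ubiquitin-like protein that is conjugated to other proteins during an antiviral response (chromosome 4, 156199424 to 156200818, reverse strand, on GRCm38). It stood at 1339 CPM in EomesTG liver, 1012 in WT liver, 1037 in EomesTG spleen and 934 in WT spleen in interferon-responding cells, against 103, 50.9, 35.5 and 28.5 CPM in rule-sum-0 cells of the same libraries. Every library was far apart on the 2 sides, and the fitted log2 fold change was 4.55 ± 0.14 (SE, n = 4 libraries; adjusted p = 1.27e-16 in edgeR's quasi-likelihood test). The oligoadenylate synthetase family, which makes or relates to the second messenger that activates RNase L, was also high: Oasl1 at 4.50, Oas2 at 4.28, Oasl2 at 4.11 and Oas3 at 3.07, with Oas2 resting on 35 UMIs. These genes are close relatives, so reads may have been split among them. Further down the antiviral list, Slfn5 (3.83), Isg20 (3.73), which encodes an exonuclease that degrades viral RNA, and Ifitm3 (3.66), which encodes a membrane protein that blocks viral fusion, were higher too; Usp18 (4.36) and Cxcl10 (4.03), outside that list, had larger values. Ifitm3 was uneven: 12.1 CPM in EomesTG liver, 55.4 in WT liver, 14.7 in EomesTG spleen and 13.7 in WT spleen, against 1.27, 8.69, 0.384 and 0.395 CPM. Bst2, which encodes tetherin, a protein that holds budding virus at the cell surface, was 5.08-fold higher, and Trim30c 9.62-fold. Sdc3, a syndecan gene outside the lists, had a log2 fold change of 3.46 but rests on 33 UMIs, 21 of them in WT liver.

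The level of the antiviral list was higher at higher sums of the 6 rule genes, though not at every step. In EomesTG liver its 50 measured genes summed to 4553 CPM (95% Clopper-Pearson interval 4522 to 4584) at a sum of 0, 5461 at 1, 6385 at 2, 10035 at 3, 8193 (7332 to 9127) at 4 and 16981 (16349 to 17630) at 10 or more. In WT spleen it summed to 5431, 6565, 8193, 9820, 10853 and 19641 CPM at the same sums. The cells just outside the threshold, with a sum of 3, reached between 8498 and 10035 CPM over the 4 libraries, and those just inside, with a sum of 4, between 8193 and 14770 CPM. Pooled over libraries the 2 ranges overlap. Within libraries the level rose from a sum of 3 to a sum of 4 in WT liver (8498 to 11144 CPM), EomesTG spleen (9171 to 14770) and WT spleen (9820 to 10853). It fell in EomesTG liver (10035 to 8193), on 8 cells at a sum of 4. Whether the threshold marks a gap between cells was not tested.

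Of the signalling pathway, the part downstream of the receptor was raised while the receptor and its kinases were not called. Ifnar1 stood at 57.7, 50.8, 58.9 and 49.0 CPM in interferon-responding cells of EomesTG liver, WT liver, EomesTG spleen and WT spleen, against 45.9, 53.3, 52.5 and 45.1 CPM in rule-sum-0 cells. The sides overlap, and the log2 fold change was 0.17 ± 0.13 (SE; adjusted p = 0.726 in edgeR). Ifnar2 had 0.11 ± 0.12, Jak1 −0.05 ± 0.08 and Tyk2 0.02 ± 0.19, so that the data are compatible with small changes of either sign in each. Ifngr1, a chain of the interferon gamma receptor, was below the rule-sum-0 cells in all 4 libraries at −0.28 ± 0.09 but not called (adjusted p = 0.111), and was called without EomesTG liver (−0.30, adjusted p = 0.0356) and with library totals only, and Ifnlr1, a receptor chain for interferon lambda, had 0 UMIs in both kinds of cell. Of 12 genes of this list tested, 3 were higher and 0 lower, where 3.12% and 0.508% of all genes tested were.

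Downstream of the kinases, Stat2, which encodes the STAT protein particular to this pathway, stood at 94.1 CPM in EomesTG liver, 62.3 in WT liver, 73.6 in EomesTG spleen and 85.4 in WT spleen, against 16.3, 12.5, 14.9 and 13.9 CPM in rule-sum-0 cells. The sides lay far apart in every library, and the log2 fold change was 2.51 ± 0.14 (SE, adjusted p = 1.65e-12, edgeR). Irf9, the DNA-binding partner of the STAT proteins, stood at 100.2, 108, 134 and 81.99 CPM, against 37.3, 45.5, 61.1 and 48.8 CPM, and was 2.25-fold higher. Stat3, whose protein serves other cytokines, was not called, at 0.28 ± 0.13, but was called without EomesTG liver, at 0.42 (adjusted p = 0.0404).

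Of the 7 interferon regulatory factor genes, 3 were higher, where 3.12% of all genes tested were. Irf7, the factor that amplifies interferon production and is itself an ISG, stood at 461, 421, 533 and 519 CPM in interferon-responding cells of EomesTG liver, WT liver, EomesTG spleen and WT spleen, against 70.6, 74.8, 69.4 and 66.1 CPM. Both sides were nearly level across libraries, and the log2 fold change of 2.85 ± 0.09 (SE, adjusted p = 1.27e-16, edgeR) was as well determined as that of Isg15. Irf1, a factor shared with the interferon gamma response, was 1.62-fold higher, and Irf2 1.32-fold, a call that was lost without WT liver (adjusted p = 0.0588) or WT spleen (adjusted p = 0.131). Irf3, which is activated by phosphorylation and not by its own RNA, had −0.02 ± 0.15, and Irf4, Irf5 and Irf8 were not called, at 0.42, 0.08 and 0.15.

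The feedback arm was led by Usp18, which encodes the protease that removes ISG15 and blocks the type I receptor. It stood at 219, 202, 255 and 230 CPM in interferon-responding cells of EomesTG liver, WT liver, EomesTG spleen and WT spleen, against 4.81, 9.72, 19.6 and 12.4 CPM in rule-sum-0 cells. The log2 ratio was 5.51 (95% interval 5.03 to 5.97) in EomesTG liver and between 3.70 and 4.38 in the other 3, with rule-sum-0 cells between 4.81 and 19.6 CPM and responding cells between 202 and 255 CPM, and the fitted value was 4.36 ± 0.17 (SE, adjusted p = 4.51e-15, edgeR). Socs1 and Socs3, suppressors of cytokine signalling, were 2.50-fold and 2.28-fold higher. The phosphatase genes Ptpn1, Ptpn2, Ptpn6 and Ptpn11, the STAT inhibitor gene Pias1 and the cytokine-induced suppressor gene Cish were not called, with log2 fold changes between −0.01 and 0.56; Cish was called without EomesTG liver, at 0.90.

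**Figure D2:**
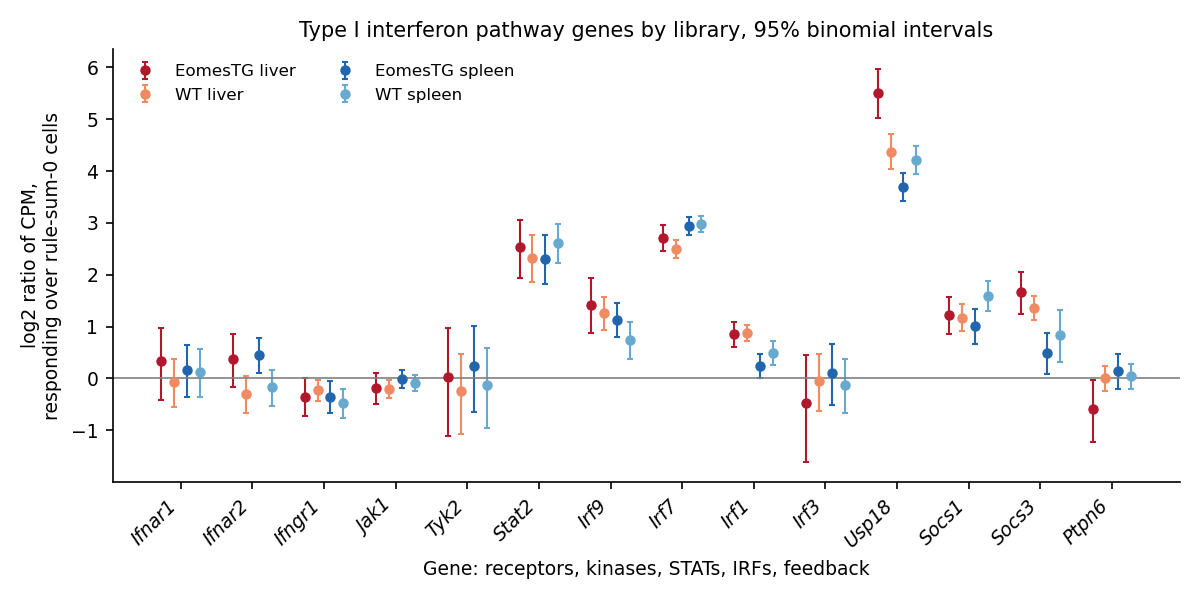
Log2 ratio of CPM in interferon-responding over rule-sum-0 cells (y axis) for 14 pathway genes (x axis) in each of the 4 libraries, with 95% binomial intervals that cover counting error. Ifnar1, Ifnar2, Jak1 and Tyk2 lie around 0, Stat2, Irf9, Irf7, Usp18, Socs1 and Socs3 lie above 0 in all 4 libraries, and Usp18 reaches 5.51 in EomesTG liver.

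Sensors of foreign nucleic acid were largely raised, and the adaptors below them were not called. Ifih1, the RNA sensor MDA5, was 8.85-fold higher, Dhx58, its regulator LGP2, 10.0-fold, and Tlr7, an endosomal receptor for single-stranded RNA, 6.19-fold on 30 UMIs. Ifi204 had the largest fitted value, 4.80 ± 0.85 (SE), but rests on 13 UMIs. The Ifi200 genes of chromosome 1 are near copies of each other, so reads may have been split among them. Mavs, the adaptor of the RNA sensors, Tmem173, which encodes STING, Mb21d1, which encodes the DNA sensor cGAS, and Aim2 were not called, at −0.14, 0.28, 0.75 and 0.15.

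The GTPase families that act on intracellular pathogens moved as a block, with Gbp8 the least changed at 1.999-fold and Iigp1 the most at a log2 fold change of 3.19 ± 0.27 (SE). Iigp1 stood at 109 CPM in EomesTG liver, 33.5 in WT liver, 118 in EomesTG spleen and 43.3 in WT spleen, against 4.48, 4.38, 25.2 and 3.90 CPM. It was higher in EomesTG than in WT in the interferon-responding cells of both organs, and the rule-sum-0 cells of EomesTG spleen stood apart. Gbp10, Gbp6 and Tgtp1 followed at 2.63, 2.49 and 2.36; Gbp and Tgtp genes are close copies, so reads may have been split among them.

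Antigen presentation by MHC class I was raised less than the antiviral genes. Of 16 genes, 10 were higher and 0 lower, with a median log2 fold change of 0.37, where 3.12% and 0.508% of all genes tested were higher and lower. H2-T22, a non-classical class I gene, was 1.999-fold higher, Tapbp, which encodes the peptide-loading chaperone tapasin, 1.96-fold, Tap1, a subunit of the peptide transporter, 1.88-fold, and H2-T23, the ligand of NKG2 receptors, 1.68-fold. All 5 immunoproteasome genes were higher, led by Psmb10, Psmb9 and Psmb8 (log2 fold changes of 0.87, 0.67 and 0.58), the catalytic subunits that replace their constitutive partners. Of 8 constitutive proteasome genes 1, Psma2, was higher at 1.29-fold, and its call was lost without WT liver or EomesTG spleen (adjusted p = 0.140 and 0.124); the 3 constitutive catalytic subunits had log2 fold changes between −0.09 and 0.18. The 18 alternatives called between 4 and 14 class I genes and between 2 and 5 immunoproteasome genes higher.

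Of surface and secreted molecules, 2 of 3 Ly6 antigen genes, 3 of 12 cytokine receptor genes, 1 of 6 egress genes and 1 of 8 chemokine and cytokine genes were higher. Over all genes tested 3.12% were higher and 0.508% lower, and a single call does not describe its list. Of 9 inhibitory receptor genes 2 were higher and 1, Tigit, was lower, with a median log2 fold change of −0.23. Ly6a, which encodes Sca-1, stood at 489, 420, 651 and 270 CPM in EomesTG liver, WT liver, EomesTG spleen and WT spleen, against 71.4, 91.9, 201 and 50.6 CPM, a log2 fold change of 2.30 ± 0.12 (SE), and Ly6c2, a memory-associated antigen, was 1.96-fold higher. Cd274, the gene of the inhibitory ligand PD-L1, was 3.36-fold higher in edgeR, at 31.9 to 75.9 CPM against 10.1 to 20.8 CPM. Ctla4, another inhibitory receptor gene, was 1.45-fold higher, a call lost without WT liver (adjusted p = 0.871) or WT spleen (adjusted p = 0.110). Its call was also lost with DESeq2, library totals only, depth-matched reference cells, a rule sum of at least 6 and thinning. Leaving out cells with UMIs of other cell types, at either cut, ended it too. Cd69, whose protein keeps S1P receptor 1 off the surface and so delays exit from tissue, was 1.59-fold higher, while S1pr1 and 4 other egress genes were not called. Cxcl10, a chemokine gene for cells that bear CXCR3, was 16.4-fold higher. It was higher in both liver libraries than in both spleen libraries, at 216 CPM in EomesTG liver, 277 in WT liver, 32.7 in EomesTG spleen and 29.6 in WT spleen, against 13.3, 22.7, 1.53 and 0.702 CPM. Among receptors for other cytokines Il10ra was 2.03-fold and Il2rg 1.32-fold higher, and Il12rb1 1.92-fold, a call that leaving out any of EomesTG liver, WT liver or WT spleen ended (adjusted p between 0.0832 and 0.388).

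Cell death genes were raised in part. Of 17 tested 4 were higher and 1 lower, where 3.12% and 0.508% of all genes tested were. Casp4, which encodes the sensor of intracellular lipopolysaccharide, was 4.11-fold higher, and Casp1 and Casp8 2.02-fold and 2.01-fold, of which Casp1 was not called without WT liver (adjusted p = 0.0787). Tnfsf10, the gene of the death ligand TRAIL, was 1.92-fold higher over all but was higher in 3 of 4 libraries, with 36.4 against 43.5 CPM in EomesTG liver, and its call was lost without any 1 of the other 3 libraries. Bcl2, an anti-apoptotic gene named after its value was seen, was the only member called lower, at 1.32-fold. The other 12 of the 17 genes tested, among them Fas, Fasl and Bax, were not called.

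Genes lower in interferon-responding cells were fewer and less steady. Of the 10 named by size, those with the most UMIs were Hist1h1b, a linker histone gene (log2 fold change −1.73 ± 0.21, SE), Rgs16, a regulator of G protein signalling (−1.58 ± 0.19), and Tnfrsf9, which encodes the costimulatory receptor 4-1BB (−1.35 ± 0.20). Tnfrsf9 stood at 48.6 CPM in EomesTG liver, 18.5 in WT liver, 6.54 in EomesTG spleen and 15.9 in WT spleen, against 210, 30.8, 23.2 and 30.4 CPM. Hspb1, a small heat shock protein gene, had the most negative value of these 10, −2.45 ± 0.38, but 10 UMIs in the interferon-responding cells, 9 of them in WT liver. Slc22a15, Osgin1, Esco2, Tacc2, Slc26a2 and Uhrf1 had values between −2.35 and −1.39 on 3 to 15 UMIs, and all but Osgin1 lost their call when 1 or another library was left out. Tacc2 stood at 0.0085 and Rgs16 at −0.30 after thinning. DESeq2 called 11 genes lower, against 53 in edgeR, and edgeR without the library term called 0, with none of these genes then past the threshold.

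Genes that T cell receptor signals induce were lower in part. Of 14 immediate early genes 3 were lower and 0 higher, where 0.508% and 3.12% of all genes tested were. The 3 were Nr4a1 at a log2 fold change of −0.64, Nr4a2 at −0.73 and Fosb at −0.69. Nr4a2 stood at 200.4 CPM in EomesTG liver, 92.3 in WT liver, 8.18 in EomesTG spleen and 9.11 in WT spleen, against 528, 113, 15.5 and 10.1 CPM, and without EomesTG liver it was not called, at −0.28 (adjusted p = 0.566). Ccl3, an inflammatory chemokine gene of activated T cells, had −1.29 over all 4 libraries and −0.32 without EomesTG liver (adjusted p = 0.634). The inhibitory receptor gene Tigit likewise had −0.90 and, without EomesTG liver, −0.41 (adjusted p = 0.566). Fosb and Nr4a1 lost their call without WT liver (adjusted p = 0.725 and 0.192), and Fosb also without EomesTG spleen. None of these 5 genes was called by DESeq2.

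The share of interferon-responding cells differed between the libraries. It was 1.19% of cells in EomesTG liver (54 of 4521, 95% Clopper-Pearson interval 0.899 to 1.56), 4.10% in WT liver (129 of 3150, 3.43 to 4.85), 1.99% in EomesTG spleen (114 of 5726, 1.65 to 2.39) and 2.77% in WT spleen (148 of 5335, 2.35 to 3.25). EomesTG was below WT in both organs, by a log2 ratio of −1.78 (−2.26 to −1.31) in liver and −0.48 (−0.84 to −0.12) in spleen. EomesTG liver was below EomesTG spleen, at −0.74 (−1.23 to −0.26), while WT liver was above WT spleen, at 0.56 (0.21 to 0.91). After thinning to 2000 UMIs, with a sum of at least 2, the shares were 1.42, 3.79, 2.41 and 3.35%; EomesTG stayed below WT, at −1.41 in liver and −0.47 in spleen, but WT liver over WT spleen was 0.18 (−0.18 to 0.53). The interval of EomesTG over WT in spleen included 0 at a sum of at least 6 (−0.88 to 0.04) and without cells of 3 or more UMIs of other cell types (−0.30, −0.76 to 0.16). Intervals here and below cover counting error only, and with 1 library per group genotype and organ cannot be told apart from differences between pools or in handling.

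**Figure D3:**
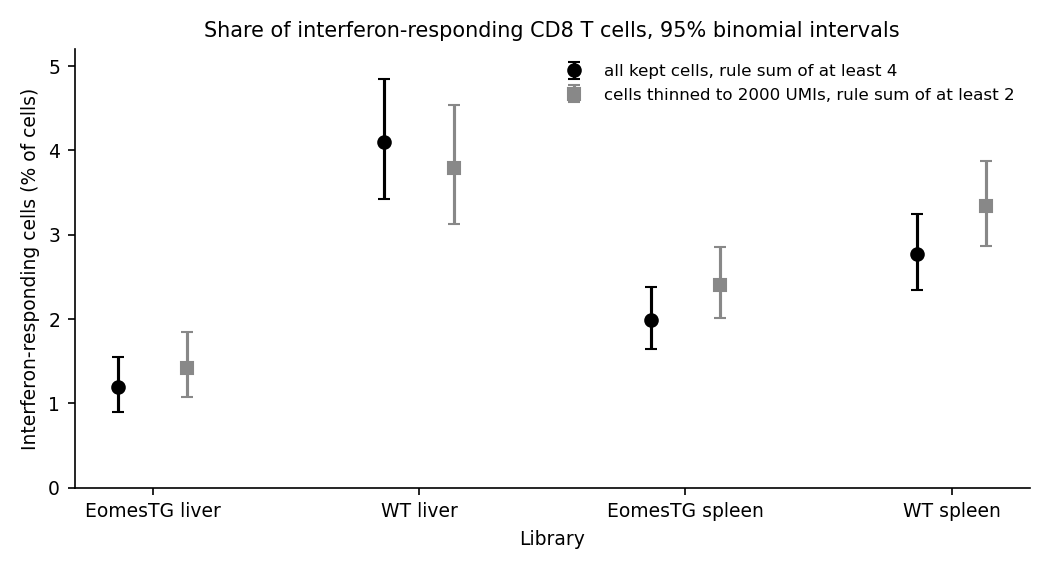
Interferon-responding cells as a percentage of all cells (y axis) in each library (x axis), as counted (circles) and after thinning each cell to 2000 UMIs (squares), with 95% Clopper-Pearson intervals. EomesTG liver is lowest at 1.19% and WT liver highest at 4.10%.

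The summed level of the antiviral program in interferon-responding cells lay between 13795 and 15510 CPM in the 4 libraries. The 50 antiviral genes summed to 13795 CPM in EomesTG liver, 14319 in WT liver, 15510 in EomesTG spleen and 14173 in WT spleen, against 4553, 5326, 5834 and 5431 CPM in rule-sum-0 cells, and the log2 ratios were 1.60 (1.56 to 1.64), 1.43 (1.40 to 1.45), 1.41 (1.38 to 1.44) and 1.38 (1.36 to 1.41). The ratio of EomesTG liver lay above the other 3, whose rule-sum-0 cells had higher levels. Gene by gene the order was another, so the sums do not rank the libraries by strength of response. The median log2 ratio over the genes of the list was 1.95 in EomesTG liver, 2.12 in WT liver, 2.29 in EomesTG spleen and 2.21 in WT spleen. Within responding cells the log2 ratio of the sum was −0.17 (−0.22 to −0.12) for EomesTG liver over EomesTG spleen and 0.13 (0.09 to 0.17) for EomesTG spleen over WT spleen. The rule sets a minimum of its own genes in every cell, which bears on these levels. Genes with at least 50 UMIs in both libraries together were compared, and a difference was counted at 1.5-fold or more with its interval past equality. In liver, EomesTG over WT, 2 of 41 antiviral genes (Trim30d and Ifit1bl1) were higher and 4 (Ifitm3, Oas1a, Rnf213 and Slfn5) lower, against backgrounds of 4% and 2.8% of 2927 genes. The largest of these was Ifitm3, at a log2 ratio of −2.19 (−4.12 to −0.74) on 4 UMIs in EomesTG liver. Of 13 GTPase genes 1 was higher, Iigp1, at 1.71 (0.96 to 2.47), and of 7 inhibitory receptor genes 4 were (Pdcd1, Lag3, Tigit and Tox). In spleen 1 of 42 antiviral genes, Ifit2, was higher and 0 lower, against 3.07% and 3.43% of 3350 genes. There the GTPase list was higher in EomesTG, with 4 of 14 genes past the threshold (Iigp1, Gbp8, Gbp4 and Igtp) and a median log2 ratio of 0.51, and Irf9 (0.71) and Ly6a (1.27) were higher too. The rule-sum-0 cells of the 2 spleens also had GTPase genes higher in EomesTG, 13 of 16 with a median of 0.79, where 2.68% of 10542 genes were higher and 4.82% lower.

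Liver and spleen libraries differed in memory and effector genes, immediate early genes and heat shock genes, in responding and in rule-sum-0 cells. In WT, liver over spleen, 11 of 14 memory and effector genes and 12 of 12 immediate early genes were higher in interferon-responding cells, and 0 lower, against 9.65% and 3.41% of 3896 genes, and their rule-sum-0 cells had 16 of 17 and 12 of 14, against 11.4% of 10510 genes. In EomesTG, 8 of 11 and 10 of 11 were higher and 0 lower, against 12% and 4.46% of 2286 genes, while the rule-sum-0 cells had 14 of 17 and 9 of 14 higher, against 24.3% and 9.49% of 10782 genes. Heat shock genes moved with them: in responding cells 5 of 9 were higher in liver in WT and 6 of 9 in EomesTG, and their part in these differences was not tested. In responding cells of EomesTG, 6 of 7 inhibitory receptor genes, among them Pdcd1 (231 against 14.7 CPM) and Ctla4 (164 against 6.54 CPM), were higher in liver. This was not particular to them: Pdcd1 was also higher in liver in the rule-sum-0 cells of EomesTG, by values given below. In responding cells of WT, Ctla4 (119 against 13.7 CPM), Cd160 (168 against 31.9 CPM) and Cd274 (61.1 against 31.9 CPM) were higher in liver too. Socs3, a feedback gene of several cytokines, was higher in liver in both genotypes, at log2 ratios of 0.89 in EomesTG and 2.27 in WT, and Irf1 likewise, at 0.79 and 1.19. The antiviral gene Slfn5 was lower in liver in both, at −1.09 and −0.59. The comparisons share libraries and are not independent of each other.

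The program occurred in naive-range and in memory-range cells. A cell was put in the naive range where its UMIs of genes of naive T cells, among them Ccr7, Lef1, Igfbp4 and Satb1, exceeded those of Ccl5, Nkg7, Cxcr3, Il2rb and Id2, and in the memory range where they were fewer; these are ranges of a score and not cell types. Of the interferon-responding cells 8, 25, 40 and 56 lay in the naive range and 45, 103, 69 and 88 in the memory range in EomesTG liver, WT liver, EomesTG spleen and WT spleen, with 1, 1, 5 and 4 ties. The naive range held 15.1, 19.5, 36.7 and 38.9% of them, against 9.19, 21.8, 54.8 and 44.4% of rule-sum-0 cells. The mean difference over the 4 libraries was −5.00 percentage points ± 9.99 (SD, n = 4; exact two-sided paired permutation test, p = 0.5, where the smallest possible is 0.125). Without EomesTG spleen it was −0.62 and without EomesTG liver −8.64. After thinning it was −5.61 ± 4.72, lower in 4 of 4 libraries, with the smallest possible p of 0.125 in the same exact test. In EomesTG spleen, responding cells made up 1.38% (0.990 to 1.88) of naive-range and 2.80% (2.19 to 3.53) of memory-range cells, and thinning gave 1.91% (1.43 to 2.49) and 3.03% (2.37 to 3.81), which overlap; in the other 3 libraries the 2 intervals overlapped. In naive-range and memory-range responding cells the antiviral list stood at 14034 and 14433 CPM in WT liver, 15745 and 15181 in EomesTG spleen and 15275 and 13284 in WT spleen. EomesTG liver had 10580 CPM on 8 naive-range cells and 14252 CPM in the memory range.

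Whether the response differs between the ranges was tested gene by gene as an interaction in edgeR's quasi-likelihood test. Of 8456 genes 4 passed (0.0473%), 3 with a larger response in the naive range and 1 with a smaller one, and 401 had an unadjusted p under 0.05. None of the 44 antiviral genes was among them, nor any of the 16 GTPase genes, whose median differences were −0.07 and −0.37 on the log2 scale; 6 of each had an unadjusted p under 0.05. The 4 genes were the receptor segments Trbv26 and Trbv1, the cytotoxic receptor gene Klrk1 (log2 difference 3.38 ± 0.67, SE, adjusted p = 0.0254) and the granzyme gene Gzma (2.84 ± 0.60, adjusted p = 0.0480). Klrk1 had 0 to 7 UMIs and Gzma 1 to 10 UMIs in the naive-range responding cells of a library, so these values rest on few molecules. A simulated difference of 4-fold was recovered in 85 of 100 genes with a larger response and 53 of 96 with a smaller one, so smaller differences may have been missed. In the same simulation 9 of 8134 genes with no difference were called, beside the 85 and 53 genes recovered. The adjustment depends on how many genes differ, so that count does not tell how many of the 4 genes called here are false calls.

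In the EomesTG liver library a smaller share of interferon-responding than of rule-sum-0 cells lay in clones of 2 or more cells. The intervals on these shares count cells as independent, which mates of a clone are not. A clone was a set of cells with the same TRA and TRB CDR3 nucleotide sequences, and 41, 103, 88 and 110 interferon-responding cells of EomesTG liver, WT liver, EomesTG spleen and WT spleen had both chains. In EomesTG liver 39.0% of them (16 of 41, 24.2 to 55.5) were in clones of 2 or more cells, against 73.6% (72.0 to 75.2) of rule-sum-0 cells. After thinning to 2000 UMIs the shares there were 55.3% (40.1 to 69.8) and 72.2% (70.6 to 73.9). In WT liver the shares were 22.3% (14.7 to 31.6) and 17.1% (15.4 to 18.9), in EomesTG spleen 1.14% and 3.05%, and in WT spleen 0.909% and 3.37%. The mean difference was −8.44 percentage points ± 17.8 (SD, n = 4; exact two-sided paired permutation test, p = 0.625), without EomesTG liver it was 0.285 and after thinning −2.58. The responding cells of EomesTG liver were thus spread over 39 clones among 41 cells, those of WT liver over 96 among 103, and those of the spleens over 88 among 88 and 110 among 110. The most in a single clone were 7 cells of a WT liver clone of 114, and 3 cells of an EomesTG liver clone of 492. Counting pairs, so that a mate enters once for each responding cell of its clone, 0.272% in EomesTG liver and 5.21% in WT liver of the clone mates of responding cells responded, where 1.26% and 4.32% of all cells with both chains did. The pairs in which both cells responded come from the clone of 3 responding cells in EomesTG liver and nearly all from the clone of 7 in WT liver.

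**Figure D4:**
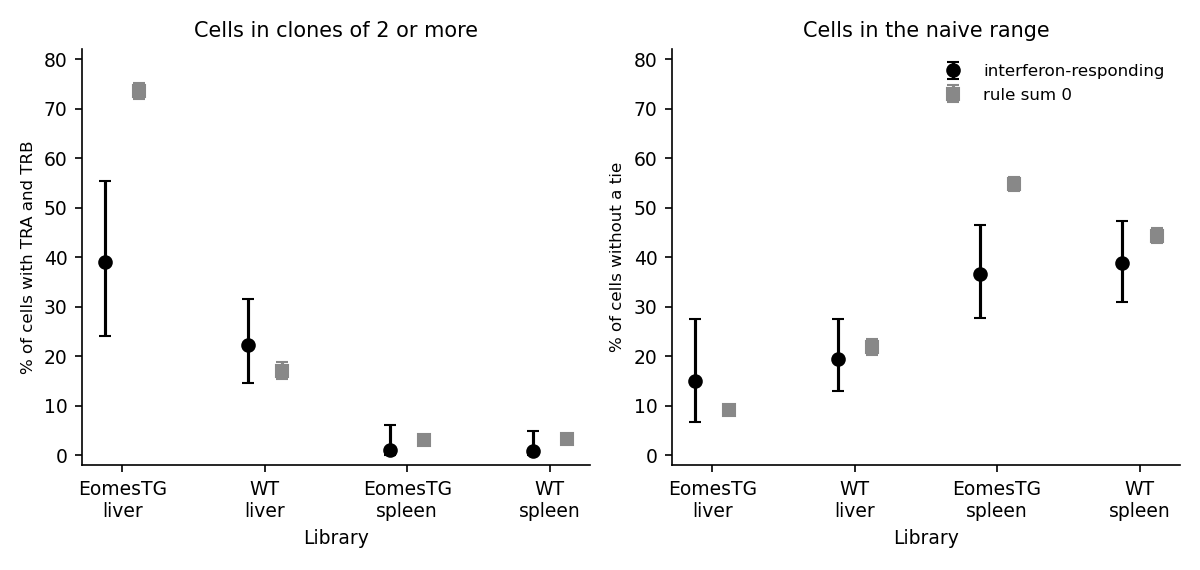
Percentage of interferon-responding cells (black circles) and rule-sum-0 cells (grey squares) that are in clones of 2 or more cells (left) and in the naive range (right), by library, with 95% Clopper-Pearson intervals. The intervals are apart in EomesTG liver for clones (39.0% and 73.6%) and in EomesTG spleen for the naive range (36.7% and 54.8%). They count cells as independent, which mates of a clone are not.

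The summed naive and effector genes differed in direction between libraries. In EomesTG liver the 12 naive marker genes summed to 2848 CPM in interferon-responding cells, against 1930 CPM in rule-sum-0 cells, a log2 ratio of 0.56 (95% interval 0.47 to 0.65), and the 17 memory and effector genes to 29057 against 40900 CPM, a ratio of −0.49 (−0.52 to −0.46), in which 3 genes were higher and 3 lower by at least 1.5-fold with the interval past equality. The memory and effector ratio was 0.16 (0.13 to 0.18) in WT liver, 0.44 (0.39 to 0.49) in EomesTG spleen and −0.21 (−0.25 to −0.16) in WT spleen. Pdcd1, which encodes the inhibitory receptor PD-1, stood at 231 against 474 CPM in EomesTG liver, and at 27.7 against 23.1 in WT liver, 14.7 against 11.4 in EomesTG spleen and 5.69 against 6.27 in WT spleen. In WT liver and both spleens the naive sum was slightly lower, with ratios between −0.22 and −0.10. Over all 4 libraries 0 of 12 naive genes were called, and of 17 memory and effector genes Itgb1, an adhesion receptor gene, was 1.56-fold higher, a call lost without cells of 3 or more UMIs of other cell types (adjusted p = 0.407), and Cxcr3 1.30-fold, a call lost without EomesTG liver, EomesTG spleen or WT spleen. The Cxcr3 call was also lost with DESeq2, library totals only, a rule sum of at least 6 and thinning. Leaving out cells with 2 TRB chains or with UMIs of other cell types ended it too. Sums do not tell fewer cells of a kind from less RNA per cell.

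Eomes stood at 106 CPM in interferon-responding cells of EomesTG liver, 142 in WT liver, 154 in EomesTG spleen and 134 in WT spleen, against 182, 81.3, 134 and 88.8 CPM in rule-sum-0 cells; transgene and endogenous reads were not told apart. It was lower in EomesTG liver and higher in the other 3 libraries, and the fitted log2 fold change was 0.38 ± 0.14 (SE, adjusted p = 0.244, edgeR), or 0.58 (adjusted p = 0.000332) without EomesTG liver. Ifng followed the same pattern, at 288, 280, 11.5 and 6.83 CPM against 406, 129, 7.16 and 5.17 CPM, with 0.50 ± 0.19 (adjusted p = 0.25) and, without EomesTG liver, 1.11 (adjusted p = 2.63e-07). The responding cells held 95, 243, 7 and 6 Ifng UMIs in EomesTG liver, WT liver, EomesTG spleen and WT spleen. The spleen values thus rest on few molecules, and most Ifng UMIs in the fit without EomesTG liver come from WT liver.

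RNA of the interferons themselves was seldom captured. The type I genes Ifnb1, Ifna2, Ifnk and Ifne and the type III genes Ifnl2 and Ifnl3 had 0 UMIs in all 18732 cells. Ifna1 had 13 UMIs, all in 1 interferon-responding cell of WT liver with 26756 UMIs, a rule sum of 9, 30 Cd3e and 24 Cd8a UMIs, 16 UMIs of other cell types and no productive TRB chain. Ifna4 had 3 UMIs, all in another such cell of WT liver, with 8304 UMIs and a rule sum of 5. Interferon alpha genes are near copies of each other, so the gene named may not be the one transcribed, and RNA below this depth would not have been detected.

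Among genes called higher, the response element letters were more frequent than among the rest. They were present in 52 of the 250 genes called higher that have a promoter in the table (20.8%), in 0 of 35 called lower and in 218 of 7784 not called (2.80%); over all 32851 windows of the table the share was 2.98%. Of the listed GTPase genes 9 of 10 held a match, and of the antiviral genes 15 of 42. Of genes called higher outside the interferon lists, 20 of 175 did (11.4%). A match is a description of these letters and not of binding.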

How the data were processed

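Per the labels' protocols, sorted CD8 T cells of mice pooled by strain were profiled with 10x Genomics 5′ v1 chemistry. The authors deposited raw UMI counts per gene and barcode, not normalized, made with Cell Ranger on mm10 per the submitters' processing notes (matrix headers: software version 3.1.0, format version 2), and contig tables with counts of UMIs and reads per receptor chain. A barcode was kept if it reached 500 UMIs and 300 genes with less than 10% of UMIs mitochondrial (66, 177, 48 and 80 left out of EomesTG liver, WT liver, EomesTG spleen and WT spleen); no doublet caller was used. Members and gene lists were chosen with earlier results of these data known. UMIs were summed per library and side and tested with edgeR 4.0.16 (R 4.3.3; quasi-likelihood, TMM, filterByExpr, library as block); the 6 rule genes were not tested. CPM are UMIs per 1000000 UMIs of the side. A test on simulated counts recovered 36 of 49 genes raised by a log2 of 1, 22 of 46 lowered by it, and called 6 of 10101 unchanged ones. Here and in the simulation of the interaction, every gene had the same assumed spread and libraries were independent. These rates need not hold for the data. Ratios between libraries carry exact conditional binomial intervals and no p-value. Genes were named by a rule: the 15 highest and 10 lowest called in the same direction in all 4 libraries with at least 20 UMIs on the higher side, without receptor segments, mitochondrial, ribosomal, unnamed-model and sex-linked genes; up to 4 called per list; and all of the receptor, IRF and feedback lists. Mx2, Gbp11 and Pyhin1 had no row under those symbols. Some genes that the rule names are not reported here. Gene positions come from GENCODE M21 on GRCm38, and promoters from RefSeq. Alternatives used DESeq2 1.42.0, other normalizations, filters, thresholds, thinning, depth-matched cells and left-out libraries or cells, and 1, leaving out cells with 10 or more UMIs of other cell types, was chosen after seeing the data.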

Additional observations from a re-analysis of the deposited data

Results flagged for a closer look

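The share of interferon-responding cells moved in opposite directions between the organs of the 2 genotypes. In EomesTG the log2 ratio of liver over spleen was −0.74 (95% interval −1.23 to −0.26), at 1.19% against 1.99%, and in WT it was 0.56 (0.21 to 0.91), at 4.10% against 2.77%. Each value rests on 1 library per group, and the difference between the 2 ratios was not tested. After thinning to 2000 UMIs the WT ratio was 0.18 (−0.18 to 0.53) and the EomesTG ratio −0.76 (−1.24 to −0.30).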

How the results depend on the processing

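The libraries are single and pooled, so counting error is the only error that could be computed for their differences. Variation between mice, pools and handling also enters them and was not measured. The 54 to 148 responding cells per library limit what low genes can show. The count of genes called higher, 326, was 157 without the replicate block of library and 216 after thinning to 2000 UMIs, and between 243 and 362 when 1 library was left out. The count of genes called lower, 53, was 11 with DESeq2, 94 with library totals only, 166 with no low-count filter, 113 with the organs of a mouse pool added and 0 without the replicate block, and between 42 and 58 when 1 library was left out. The block pairs the 2 sides of each library, which come from the same pool and droplets. The 45 antiviral ISGs called higher became 41 without the block and between 44 and 47 under the other alternatives. The 4 genes whose response differed between the ranges became 2 with DESeq2, 20 with no low-count filter and between 2 and 10 when 1 library was left out. The log2 ratio of the share, WT liver over WT spleen, was 0.18 after thinning. The difference in the share of cells in expanded clones was between −13.0 and 0.285 percentage points, and that in the naive range between −8.64 and −0.62, when 1 library was left out; without EomesTG liver the first reversed. The log2 fold change of Tacc2 was 0.0085 after thinning. Of 1585 values of 90 named genes under the alternatives 1417 kept direction and call, 149 lost and 18 gained the call and 1 reversed. The cause of these shifts was not tested.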

Other observations

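Most of the genes called higher, 213 of 326, lay outside the lists. Named after their values were seen, several are known ISGs: Daxx, a chaperone of histones and partner of PML bodies (log2 fold change 2.43), Pml itself (2.18), Trafd1, a brake on innate signalling (2.55), the RNA helicase genes Ddx60 (2.45) and Mov10 (2.08), Ube2l6 (2.10) and Uba7 (0.99), the conjugating and activating enzymes of ISG15, and the RNA editor gene Adar (1.46). Gadd45g, a stress gene, stood at 139.7, 136, 49.1 and 58.1 CPM in interferon-responding cells of EomesTG liver, WT liver, EomesTG spleen and WT spleen, against 43.6, 29.5, 18.0 and 12.8 CPM in rule-sum-0 cells. Apoe was called at 2.84, but its 126 CPM in WT liver stood against 3.04, 0 and 1.14 CPM in the other 3 libraries; any link with the WT liver cell that held 313 UMIs of other cell types was not tested.

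Histone genes, also grouped after their values were seen, made up 8 of the 53 genes called lower. Of 42 histone genes tested 8 were lower and 0 higher, with a median log2 fold change of −0.45, where 0.508% and 3.12% of all genes tested were lower and higher. They summed to 498 CPM in interferon-responding cells of EomesTG liver, 725 in WT liver, 270 in EomesTG spleen and 307 in WT spleen, against 1065, 1169, 279 and 483 CPM in rule-sum-0 cells. Rrm2 (−0.96), which makes deoxynucleotides in S phase, was lower too, while 0 of the 14 listed cell cycle genes were called.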
